A study of Homo sapiens with 6 samples.

Results

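The 5 genes EDN1, HBEGF, CCN2, WNT5A and IGFBP1 encode secreted proteins that act on growth, blood vessels and matrix. They were taken by name from the 402 genes of the deposited expression table, and all 5 were found there. The authors had called all 402 genes significantly higher in shYTHDC2, and the 5 were chosen by that call, with the values of these libraries known. Their differences between the groups are therefore described and not tested.

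The tested cells were CAL-27, an established line of oral squamous cell carcinoma, carrying a knockdown of YTHDC2, an RNA helicase that recognises the methyl mark N6-methyladenosine (m6A) on RNA. Poly(A) RNA was sequenced from 3 shYTHDC2 libraries and 3 NC libraries of the same line, numbered as biological replicates. NC is the group the knockdown was compared with, and the labels do not spell the abbreviation out. Neither the hairpin sequence, the number of hairpins nor the number of clones was stated, and nothing said whether the replicates came from separate cultures, so the spread between libraries may be technical. Levels are FPKM, fragment counts divided by transcript length and by library size, and the depth of each library is unknown. In bulk RNA, fewer cells of a type and less RNA per cell cannot be told apart. The level of YTHDC2 was not analysed here, and neither were the keratinocyte markers that would check the cell type (0 of 10 were in the table).

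As background, endothelin-1 (EDN1) is a vasoconstrictor peptide. It is cut from a longer precursor by endothelin-converting enzymes and signals through G protein-coupled receptors. HB-EGF (HBEGF) is made as a membrane-anchored precursor, is shed by metalloproteases and activates the EGF receptor, a central growth pathway of squamous carcinoma. CCN2, also called connective tissue growth factor, is a matricellular protein and a standard target gene of the transcriptional coactivator YAP and its DNA-binding partners, the TEAD proteins. WNT5A is a Wnt ligand best known for signalling that does not pass through beta-catenin. IGFBP1 binds insulin-like growth factors outside the cell and is best known as a product of liver and decidua.

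All 5 genes were higher in shYTHDC2 than in NC, and for all 5 the lowest shYTHDC2 library lay above the highest NC library. The same separation held for 90.5% of all 402 genes, and 100% of them carried the authors' call, so nothing about the 5 genes is read from either count. In the authors' deposited table the q of the 5 genes ran between 4.67e-74 for HBEGF and 1.89e-08 for IGFBP1, where the largest q of the table was 0.0494. HBEGF and CCN2 made up most of the summed level of the 5 genes, which averaged 94.1 ± 2.7 FPKM in shYTHDC2 and 36.6 ± 1.3 FPKM in NC (± SD over the 3 libraries of a group, here and below). The median fold of the 4 genes with signal in NC was 3.61, against 2.57 for the 318 listed genes with signal in NC. That median stands for no single gene: EDN1 (5.40) and WNT5A (4.81) lay above 2.57, and HBEGF (2.41) and CCN2 (2.15) below it.

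**Figure D1:**
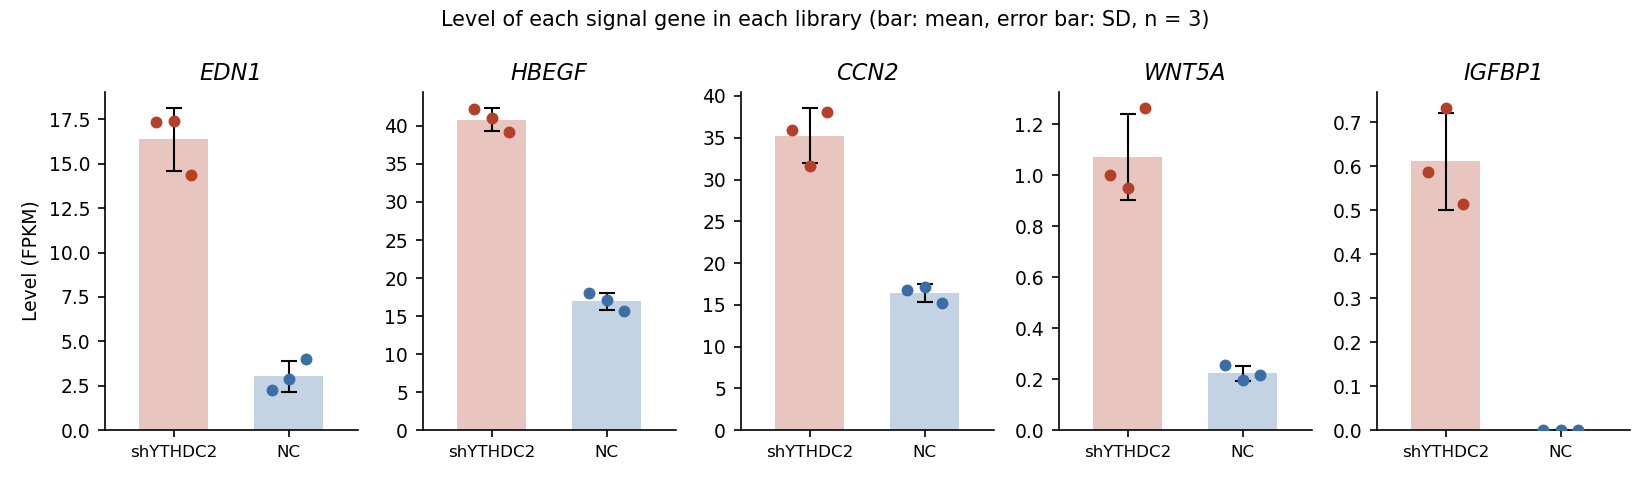
Level in FPKM (y axis, from 0, own scale in each panel) of the 5 genes in each shYTHDC2 and NC library; points are libraries, bars are means and error bars are SD (n = 3). In each panel every shYTHDC2 point lies above every NC point, and the 3 NC points of IGFBP1 lie at 0.

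EDN1 showed the largest fold of the 4 genes with signal in both groups. Its level was 17.4, 17.4 and 14.3 FPKM in the shYTHDC2 libraries, against 2.24, 2.87 and 3.98 FPKM in the NC libraries. The shYTHDC2 libraries lay close together, while the highest NC library stood well above the lowest NC library; the coefficient of variation was 10.7% in shYTHDC2 and 28.99% in NC. The means were 16.4 ± 1.8 FPKM in shYTHDC2 and 3.03 ± 0.88 FPKM in NC, a fold of 5.40. Set library against library, the fold ran between 3.60 and 7.76, so its size is known less well than its direction. On the log2(FPKM + 1) scale, which understates changes of low genes, the difference was 2.12 (SE 0.20). Of the 318 listed genes with signal in NC, 84.6% had a smaller fold than EDN1. By level EDN1 stood at rank 35 of the 402 genes in shYTHDC2 and at rank 53 in NC.

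EDN1 (ENSG00000078401) spans 12290363 to 12297194 on the plus strand of chromosome 6 (GRCh38, GENCODE release 29) and has 5 exons. The window before its start is shown because endothelin-1 is known for transcriptional control through short elements in its proximal promoter. RefSeq (GRCh38.p14) gives 250 bases at chr6:12290111-12290360, plus strand, written 5′ to 3′. Capitals mark, from left to right, the GATA letters (AGATAA, here on the other strand), the core of the hypoxia response element (ACGTG, other strand), the SMAD letters (CAGACA, other strand), the forkhead letters (GTAAACA, other strand) and the TATA box (TATAAA).
EDN1: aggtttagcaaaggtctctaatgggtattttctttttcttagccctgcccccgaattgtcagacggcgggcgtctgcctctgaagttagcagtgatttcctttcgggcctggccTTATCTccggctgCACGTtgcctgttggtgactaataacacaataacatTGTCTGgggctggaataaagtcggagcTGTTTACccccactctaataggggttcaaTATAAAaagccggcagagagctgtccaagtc

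Counted from the annotated start, the TATA letters began at position -31 and the GATA letters at -136. On either strand TATAAA occurred in 11.5% of all 35116 promoter windows in the RefSeq table, AGATAA in 10.3%, ACGTG in 21.4%, CAGACA in 16.9% and GTAAACA in 3.42%. These are shares of windows with the letters and say nothing of binding in CAL-27 cells. RefSeq holds 2 further start windows for EDN1 upstream of this one, with other matches.

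HBEGF was the most abundant of the 5 genes in both groups, with the tightest shYTHDC2 replicates (coefficient of variation 3.70%). Its level was 42.2, 41.1 and 39.2 FPKM in the shYTHDC2 libraries, against 18.0, 17.1 and 15.7 FPKM in the NC libraries. The libraries of each group lay close together with a gap of 21.2 FPKM between the lowest shYTHDC2 and the highest NC library. The means were 40.8 ± 1.5 FPKM in shYTHDC2 and 16.9 ± 1.1 FPKM in NC, which is a fold of 2.41 and a log2 difference of 1.22 (SE 0.06). Between single libraries the fold ran from 2.18 to 2.69. Of the listed genes with signal in NC, 39.6% had a smaller fold, and 52.2% of those that reached a mean of 1 FPKM. By level HBEGF stood at rank 13 of 402 in shYTHDC2 and at rank 12 in NC.

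HBEGF (ENSG00000113070) spans 140332843 to 140346631 on the minus strand of chromosome 5, with 6 exons in its representative transcript. Its promoter window is shown for contrast with that of EDN1: it held no TATA letters and 75.0% G and C, where the median of all windows was 58.7%. RefSeq gives the 222 bases at chr5:140346632-140346853, minus strand, with capitals for the GC box letters GGGCGG on either strand, a word in 45.0% of all windows.
HBEGF: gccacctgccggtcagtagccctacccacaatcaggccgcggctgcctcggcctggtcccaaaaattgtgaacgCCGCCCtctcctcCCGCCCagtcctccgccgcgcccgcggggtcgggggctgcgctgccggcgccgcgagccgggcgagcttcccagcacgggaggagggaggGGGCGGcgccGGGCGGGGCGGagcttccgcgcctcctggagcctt

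The GC box letters occurred 5 times in this window, and 2 of those matches overlap by 1 base.

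CCN2 had the smallest fold of the 4 genes and nearly the same NC level as HBEGF. Its level was 36.0, 31.7 and 38.1 FPKM in the shYTHDC2 libraries, against 16.8, 17.2 and 15.2 FPKM in the NC libraries. The shYTHDC2 libraries were spread more widely than those of HBEGF, and the groups remained apart by 14.5 FPKM. The means were 35.2 ± 3.3 FPKM in shYTHDC2 and 16.4 ± 1.1 FPKM in NC, a fold of 2.15 and a log2 difference of 1.06 (SE 0.09). Single libraries gave folds between 1.84 and 2.51, so some pairs of libraries fell under the 2-fold minimum of the table. Of the listed genes with signal in NC, 52 (16.4%) had a smaller fold; the smallest in the authors' deposited table was 2.00.

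CCN2 (ENSG00000118523) spans 131948176 to 131951373 on the minus strand of chromosome 6, with 5 exons. An antisense gene, AL133346.1, overlaps it by 428 bases on the opposite strand. The overlap is that of the gene spans, and whether exons of both genes share those bases was not checked. The sources used here do not say whether the counting used the strand, so reads in those bases may not be assignable with certainty. The CCN2 promoter is shown because TEAD binding there is the textbook example of YAP target control. RefSeq gives the 249 bases at chr6:131951374-131951622, minus strand, with capitals for the TEAD letters GGAATG and for the TATA box.
CCN2: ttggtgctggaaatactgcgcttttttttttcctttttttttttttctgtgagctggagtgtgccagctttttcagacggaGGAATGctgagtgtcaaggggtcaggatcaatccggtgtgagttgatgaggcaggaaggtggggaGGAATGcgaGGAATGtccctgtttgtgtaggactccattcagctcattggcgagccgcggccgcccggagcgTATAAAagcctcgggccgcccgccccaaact

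GGAATG occurred 3 times on the plus sense of the gene, starting at positions -169, -104 and -95 from the annotated start, and the TATA letters began at -32. At least 1 match to GGAATG on either strand was present in 14.0% of all windows, and 3 or more in 45 of 35116 windows (0.128%). The match nearest the start overlaps a match to the NF-kB consensus, which was present in 5.91% of windows. No YAP or TEAD measurement belongs to these data.

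WNT5A was expressed at a low level and had the second largest fold. Its level was 1.00, 0.951 and 1.26 FPKM in the shYTHDC2 libraries, against 0.255, 0.197 and 0.216 FPKM in the NC libraries. The 3 NC libraries lay close together near the bottom of the scale, and 1 shYTHDC2 library stood above the other two. The means were 1.07 ± 0.17 FPKM in shYTHDC2 and 0.223 ± 0.029 FPKM in NC, a fold of 4.81 that ran between 3.73 and 6.40 for single libraries. The log2(FPKM + 1) difference was 0.76 (SE 0.07), which at this level is far smaller than the log2 of the fold. Among the listed genes with signal in NC, 81.8% had a smaller fold than WNT5A.

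The antisense RNA WNT5A-AS1 (ENSG00000244586) was also in the table. Its level was 0.760, 0.945 and 0.880 FPKM in the shYTHDC2 libraries, against 0.112 FPKM in 1 NC library and 0 in the other two. In shYTHDC2 the antisense RNA thus stood at 0.817 ± 0.16 of the WNT5A level, per length, and no ratio is given for NC, where most libraries list it at 0. GENCODE places WNT5A (ENSG00000114251) at 55465715 to 55490539 on the minus strand of chromosome 3 and WNT5A-AS1 at 55487699 to 55488308 on the plus strand, wholly inside it. RefSeq places the start of WNT5A-AS1 at 55487618 and 1 of the WNT5A starts at 55487306, so these starts face away from each other across 312 bases and their promoter windows share 189 bases. The libraries were strand-marked, but whether the counting used the strand is not stated. Reads of the pair may therefore have been mixed, and the WNT5A value is uncertain for that reason. Of the 402 listed genes, 377 had a GENCODE position, and among these no other one overlapped any of the 5. Those nearest to EDN1, HBEGF, CCN2 and IGFBP1 lay between 619604 bases (HBEGF) and 11764782 bases (EDN1) away.

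IGFBP1 was listed at 0 in all 3 NC libraries, against 0.587, 0.732 and 0.515 FPKM in the shYTHDC2 libraries. The mean in shYTHDC2 was 0.611 ± 0.11 FPKM, and the groups differed by that amount. With every NC value at 0 no fold can be stated; the 6113-fold value in the authors' deposited table comes from 0.0001 put in place of the NC mean. In all, 84 listed genes stood at 0 in the NC libraries, and IGFBP1 had the rank 6 among them by its shYTHDC2 level, where the median was 0.119 FPKM. Signal in all 3 shYTHDC2 libraries was present for 50 of the 84 genes. IGFBP1 (ENSG00000146678) spans 45888357 to 45893668 on the plus strand of chromosome 7, with 4 exons in its representative transcript. At a level under 1 FPKM and with the depth unknown, a value of 0 does not show that the gene was silent in NC.

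Across the 5 genes the order of levels was the same in both groups, HBEGF, CCN2, EDN1, WNT5A and IGFBP1 from high to low. In shYTHDC2 neighbours in that order did not overlap, although HBEGF and CCN2 came close, with 39.2 FPKM in the lowest HBEGF library and 38.1 FPKM in the highest CCN2 library. In NC HBEGF and CCN2 overlapped and differed by less than their SD. EDN1 made up 17.4% ± 1.9 of the summed level of the 5 genes in shYTHDC2 and 8.35% ± 2.7 in NC. The ratio of EDN1 to HBEGF within a library was 0.400 ± 0.031 in shYTHDC2 and 0.182 ± 0.065 in NC. The ratio of CCN2 to HBEGF was 0.865 ± 0.10 in shYTHDC2 and 0.968 ± 0.036 in NC. The EDN1 to HBEGF ratio of every shYTHDC2 library lay above that of every NC library, while the CCN2 to HBEGF ratios of the groups overlapped.

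**Figure D2:**
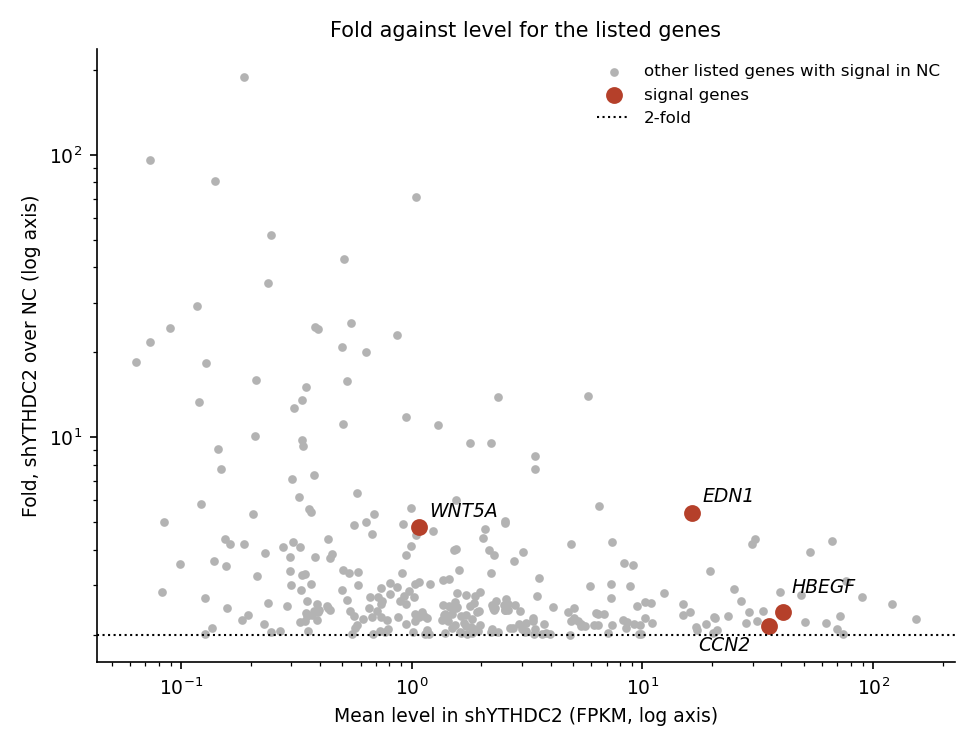
Fold of the group means, shYTHDC2 over NC (y axis, log scale), against the mean shYTHDC2 level in FPKM (x axis, log scale) for the 318 listed genes with signal in NC; larger points are EDN1, HBEGF, CCN2 and WNT5A, and the dotted line marks 2-fold. EDN1 (5.40-fold) and WNT5A (4.81-fold) lie above most genes, and HBEGF (2.41-fold) and CCN2 (2.15-fold) lie near the line among the most abundant genes.

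Pathway partners of the 5 genes were looked up from 18 fixed lists with 342 distinct genes, of which 20 were in the table, 15 of them besides EDN1, HBEGF, CCN2, WNT5A and IGFBP1. A list gene that was not in the table was not analysed here, so nothing is said of its level. Of the 19659 protein-coding genes with a representative transcript, 290 were in the table. The lists were chosen with earlier results of these data known, so no count is read as a result about a pathway. Over all 402 genes the median log2(FPKM + 1) difference was 0.53, over the 187 genes that reached a mean of 1 FPKM it was 0.88, and over the 5 genes, 4 of which reached that level, it was 1.06. The scale shrinks the differences of low genes, so these medians depend on level. Where a list holds any of the 5 genes, its count and its median log2 difference below include them. All genes in the table were selected for being higher, so no list median is read as a result about a pathway.

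For the endothelin axis 2 of 10 genes were listed, EDN1 and ECE1. ECE1, the enzyme that cuts the endothelin-1 precursor into the active peptide, stood at 36.5, 34.0 and 34.5 FPKM in the shYTHDC2 libraries, against 17.8, 16.2 and 16.02 FPKM in the NC libraries. The groups did not overlap and the fold was 2.10, a log2 difference of 1.03. The median log2 difference of 1.58 is that of the pair and includes EDN1. Precursor and converting enzyme were thus both in the table, while the receptors EDNRA and EDNRB were not analysed here. Of 28 other genes of vasoactive signals, among them adrenomedullin, natriuretic peptides and nitric oxide synthases, 0 were in the table.

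EDN1 is abundant in endothelial cells, so the endothelial markers are given beside it. Of 10 such markers 2 were in the table. The junctional cadherin CDH5 averaged 3.12 ± 0.41 FPKM in shYTHDC2 and 1.52 ± 0.12 FPKM in NC. The adhesion protein ESAM averaged 0.736 ± 0.099 FPKM in shYTHDC2 and 0.286 ± 0.10 FPKM in NC. The sum of both ran between 3.32 and 4.26 FPKM over the shYTHDC2 libraries and between 1.70 and 2.00 FPKM over the NC libraries, with a median log2 difference of 0.57. PECAM1, VWF and the other 6 markers were not analysed here. All libraries are labelled as the carcinoma line CAL-27, and no label names endothelial cells. Whether the values of CDH5 and ESAM bear on the EDN1 result was not tested. The lists of fibroblast (10 genes), leukocyte (8) and hepatocyte markers (8) had 0 genes in the table.

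For HBEGF, 4 of 25 genes of the EGF receptor list were in the table, with a median log2 difference of 1.19. ADAM15, a membrane metalloprotease, stood at 33.5, 32.8 and 33.8 FPKM in the shYTHDC2 libraries, against 13.3, 13.3 and 14.8 FPKM in the NC libraries, a fold of 2.42 that is close to that of HBEGF. ADAM12, a metalloprotease known to shed HB-EGF, averaged 7.28 ± 0.76 FPKM in shYTHDC2 and 2.70 ± 0.12 FPKM in NC, 2.69-fold. LRIG1, which limits EGF receptor signalling, averaged 1.82 ± 0.29 FPKM in shYTHDC2 and 0.898 ± 0.12 FPKM in NC. These 4 genes, HBEGF among them, are a ligand, proteases and an inhibitor, and nothing about the pathway is read from their being listed. The other EGF family ligands on the list and the receptors were not analysed here.

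CCN2 was the 1 listed gene of the 6 genes of its family and of 24 YAP and TEAD targets. The list of TGF-beta targets had 2 of 19 genes, CCN2 and FN1, with a median log2 difference of 1.02. FN1, which encodes the matrix protein fibronectin, averaged 21.1 ± 1.5 FPKM in shYTHDC2 and 10.2 ± 0.76 FPKM in NC. The immediate early and serum response list had 1 of 32 genes, the zinc finger factor KLF6 at 16.1 ± 1.2 FPKM in shYTHDC2 and 6.69 ± 0.92 FPKM in NC.

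Of 53 Wnt ligands, receptors and secreted regulators, 3 were in the table, with a median log2 difference of 0.77. WNT9A, another ligand, averaged 1.88 ± 0.18 FPKM in shYTHDC2 and 0.683 ± 0.077 FPKM in NC, 2.75-fold. MCAM, a cell surface glycoprotein reported to bind WNT5A, averaged 8.54 ± 0.48 FPKM in shYTHDC2 and 3.84 ± 0.22 FPKM in NC, 2.22-fold. In the authors' annotation, WNT5A shared the KEGG Hippo pathway with CCN2, a label on 7 of the 150 listed genes with a KEGG entry. With EDN1 it shared the melanogenesis label (4 of 150 genes) and the label for pathways in cancer (12 of 150 genes). It shared the label for proteoglycans in cancer with HBEGF (6 of 150 genes).

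For IGFBP1, 3 of 20 genes of the insulin-like growth factor axis were in the table, with a median log2 difference of 0.69. IGFBP4, another binding protein, stood at 8.22, 8.27 and 8.13 FPKM in the shYTHDC2 libraries, against 3.45, 3.31 and 4.15 FPKM in the NC libraries, 2.26-fold. The glycoprotein hormone STC1 averaged 0.452 ± 0.18 FPKM in shYTHDC2 and 0.118 ± 0.080 FPKM in NC. IGFBP4 was thus the more abundant binding protein in both groups, per length. The FOXO target list had 2 of 17 genes (IGFBP1 and KLF6, median log2 difference 0.92) and the integrated stress response list had 1 of 18, IGFBP1 alone. The hypoxia list had 3 of 22 genes, EDN1, IGFBP1 and LOX, with a median log2 difference of 0.92. LOX, which crosslinks collagen, averaged 8.49 ± 0.47 FPKM in shYTHDC2 and 4.02 ± 0.32 FPKM in NC. Of 46 other secreted growth factors and their antagonists 2 were listed, with a median log2 difference of 1.04. The BMP antagonist NOG averaged 4.92 ± 0.69 FPKM in shYTHDC2 and 1.17 ± 0.082 FPKM in NC, 4.20-fold, and CSF3 averaged 1.58 ± 0.73 FPKM in shYTHDC2 and 0.631 ± 0.26 FPKM in NC.

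**Figure D3:**
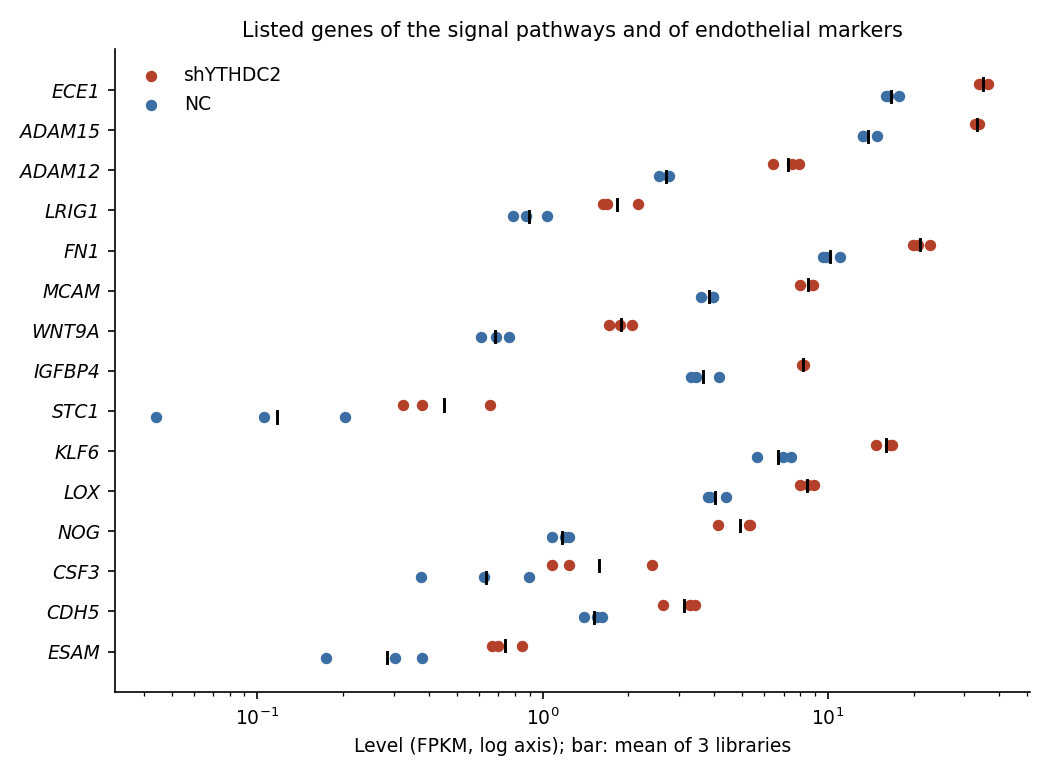
Level in FPKM (x axis, log scale) of the 15 other listed genes of the pathway and marker lists; points are libraries, shYTHDC2 above NC in each row, and bars are means of 3 libraries. ECE1 and ADAM15 lie at levels near those of HBEGF and CCN2, and STC1 and CSF3 show the widest scatter between libraries.

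The genes whose level and change over the 6 libraries were most like those of the 5 genes were named by the distance of their log2(FPKM + 1) values, among 276 other protein-coding genes with a symbol. ECE1 was nearest to CCN2 (distance 0.22), and IFIT2, an interferon-induced gene, was nearest to HBEGF (0.35); each was second for the other. EDN1 had no close match, with the vesicle protein STX12 at 1.09 and the G protein regulator RGS19 at 1.22, which had folds of 2.80 and 2.59. WNT5A lay nearest to OTUB2 (0.28) and HOXB8 (0.28), which had folds of 3.01 and 3.06, against 4.81 for WNT5A. IGFBP1, at 0 in NC, lay nearest to IL4I1 (0.38) and MMP24 (0.40), which averaged 0.129 and 0.161 FPKM in NC. The scale shrinks the differences of low genes, so the distances of WNT5A and IGFBP1 cannot be set beside those of EDN1. The measure joins level and change, and all of these genes were selected for being higher.

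Because YTHDC2 is known as an m6A reader, the word GGACT, the DNA spelling of the most used m6A consensus, was counted in 1 representative transcript of each gene. It occurred 4 times in HBEGF, 4 times in WNT5A, 2 times in IGFBP1, 1 time in EDN1 and 0 times in CCN2. Of 19659 protein-coding genes, 87.5% had at least 1 match, with a median of 0.94 per kilobase. HBEGF had 1.68 per kilobase, more than 82.6% of genes, and EDN1 0.49, more than 22.8% of genes. The match nearest to the stop codon is shown for each gene that has one, with 12 bases on each side and the word in capitals, in the sense of the transcript.
EDN1, coding: gttgttccgtatGGACTtggaagccctag
HBEGF, 3′ UTR: ggaatcggctggGGACTgctacctctgag
WNT5A, coding: ggacctgccgcgGGACTggctctggggcg
IGFBP1, coding: gatggagaggcgGGACTctgctggtgcgt

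The HBEGF match lay 32 bases past the stop codon, the IGFBP1 match 102 bases before its end, and those of EDN1 and WNT5A 387 and 616 bases before it. Other forms of the consensus were not counted, and methylation was not measured.

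AU-rich elements, built on the word AUUUA, are known to shorten the life of many mRNAs of secreted signals, and ATTTA was therefore counted in the 3′ UTRs. It occurred in all 5 genes, 15 times in WNT5A, 5 times each in HBEGF and IGFBP1, 4 times in EDN1 and 3 times in CCN2. Among 17273 genes with a 3′ UTR of at least 100 bases, 67.5% had the word, with a median of 1.55 per kilobase. The 5 genes had between 2.76 (CCN2) and 8.67 (IGFBP1) per kilobase, more than 68.9% and 98.0% of genes. The median of the listed genes was 1.74. The IGFBP1 value rests on a 3′ UTR of 577 bases. Its first stretch with 2 matches, bases 27 to 55 of the 3′ UTR, is shown with the word in capitals.
IGFBP1: gtgaaatATTTAagtatatagtatATTTA

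RefSeq gives promoter windows for EDN1, HBEGF, CCN2 and WNT5A. Of the 12 motifs searched in them, the GC box was the 1 with a match in some window of all 4 genes. The GC box letters occurred in 45.0% of all windows. For EDN1 it lay in an upstream start window and for WNT5A at position -174, and it was left in 3 genes in the 150 bases before the start. Neither WNT5A window lies at the GENCODE start of the gene, from which they are 3233 and 9141 bases away. In the nearer window, which holds the match, all 250 bases before the start lie in exons of a coding gene. The window at the GENCODE start of WNT5A was not searched. The AP-1 letters TGANTCA, the E box CACGTG, the insulin response core CAAAACA and the CArG box were found in 0 of the 4 genes. They occurred in 7.71%, 7.26%, 4.92% and 1.29% of all windows. A gene count takes any window of a gene, 3 for EDN1 and 2 for WNT5A, while the shares are per window. Counts and shares are therefore not like for like. TATA and TEAD letters, present in 11.5% and 14.0% of all windows, were found in EDN1 and CCN2. The TEAD match of EDN1 likewise lay in an upstream start window. A missing word says only that its letters are not in these bases.

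**Figure D4:**
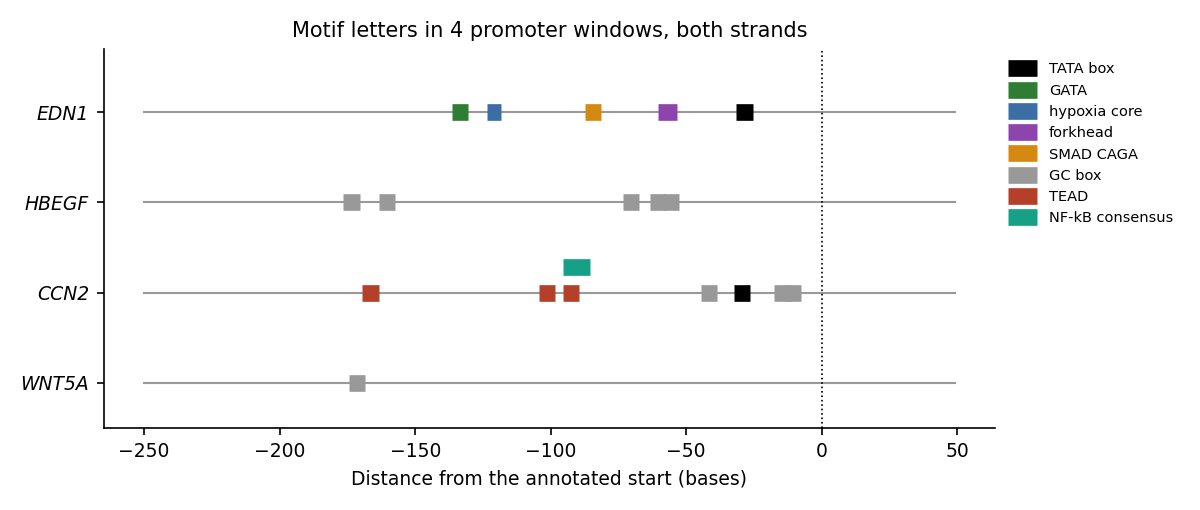
Positions of motif letters (coloured blocks, both strands) in 1 promoter window each of EDN1, HBEGF, CCN2 and WNT5A, drawn to scale along the distance from the annotated start in bases (x axis; dotted line at the start). CCN2 carries 3 TEAD matches and EDN1 a spread of single matches, while HBEGF and WNT5A carry GC boxes alone. The WNT5A window drawn lies 3233 bases from the GENCODE start of the gene, within exons before its start.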

How the data were processed

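Poly(A) RNA of 3 shYTHDC2 and 3 NC libraries of CAL-27 was sequenced as strand-marked paired ends, per the labels' protocols. GRCh38, edgeR, StringTie, HISAT2 and fastp are named in the submitters' processing notes, with no version or role. The authors deposited 1 FPKM value per gene and library. Beside these stands the authors' fold, a ratio equal within 0.1% to the ratio of group means in all 402 genes (0.0001 replacing a mean of 0), its log2, and a deposited p-value and q-value whose test is not named. Only genes called higher at 2-fold or more are in it, so no rescaling between libraries was applied.

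The members, lists and motifs were chosen with earlier results of these data known. Means, SD, folds and differences of log2(FPKM + 1) with standard errors were computed from the 3 libraries of each group with Python 3.11.15, numpy 2.4.6 and pandas 2.3.3, and no test was run. On simulated data only the log2 difference without a pseudocount was tested, at NC levels of at least 1 FPKM, together with the motif search. The standard errors, SD, folds and the log2(FPKM + 1) scale at low levels were not tested in that way. Named genes were the 5 members, overlapping listed genes, up to 3 listed genes of each list and the 2 nearest profiles of each member. The gene ontology column was not used here, and 1 further gene of the table is not reported here. Positions come from GENCODE release 29, in which 377 of the 402 IDs matched, and promoter windows from RefSeq (GRCh38.p14), which matched 4 of the 5 genes. The representative transcript was the one with the longest coding part. The word counts in transcripts were chosen after the values were seen. Alternatives were other pseudocounts, medians, a 1 FPKM filter, libraries left out, same-numbered pairs, older symbols and a shorter promoter window.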

Additional observations from a re-analysis of the deposited data

How the results depend on the processing

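Of 96 alternative values 8 moved and 0 turned in sign. The groups of EDN1, HBEGF, CCN2, WNT5A and IGFBP1 do not overlap, so no difference or fold could turn. Shares and counts have no sign. Differences from same-numbered pairs, those of IGFBP1 without an NC library and the counts of separated genes could not change. The unmoved values are therefore not read as stability. The log2 differences that moved did so by more than the spread between replicates. A share was called moved when it lay outside the shares at the fold minus and plus its SD, taken from the replicates. Counts have no such spread. The pseudocount set the size of the log2 differences of the less abundant genes. With 0.1 FPKM in place of 1 FPKM the difference was 2.43 for EDN1, 1.85 for WNT5A and 2.82 for IGFBP1, and with 0.01 FPKM it was 2.46, 2.21 and 5.94, because a smaller pseudocount adds less to low values; for IGFBP1, listed at 0 in NC, the value is set by the pseudocount and is no bound. Among genes that reached a mean of 1 FPKM in a group, 94.1% had a smaller fold than EDN1, 92.5% than WNT5A, 52.2% than HBEGF and 22.04% than CCN2, because many genes of large fold and low level were left out.

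With each library left out in turn, the log2 difference ran from 1.98 to 2.29 for EDN1, 1.17 to 1.27 for HBEGF, 1.00 to 1.13 for CCN2, 0.69 to 0.80 for WNT5A and 0.63 to 0.73 for IGFBP1. The fold ran from 4.78 to 6.40 for EDN1, 2.33 to 2.49 for HBEGF, 2.06 to 2.26 for CCN2 and 4.38 to 5.19 for WNT5A. The groups of all 5 genes stayed apart, which was fixed in advance. Groups that do not overlap cannot come to overlap when a library is left out.

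Taking same-numbered libraries as pairs (a replicate block), the differences are the same by construction, 2.12 for EDN1, 1.22 for HBEGF, 1.06 for CCN2, 0.76 for WNT5A and 0.69 for IGFBP1, and the standard error became 0.26 for EDN1 and 0.02 for HBEGF. Deviations of same-numbered libraries had correlations of 0.06, 0.15 and 0.07 across 187 genes. Those of differently numbered libraries ran from -0.12 to 0.05. The labels state no pairing, and whether the replicates form blocks was not tested. In the 150 bases before the start the GC box was found in 3 genes in place of 4, and the other motifs kept their counts. Depth is unknown and limits WNT5A and IGFBP1 most.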
